A study of Mus musculus with 12 samples.

Results

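A group of 10 receptor genes that dendritic cells (DCs) and their progenitors use to sense growth and survival cytokines were followed through small bulk RNA-seq libraries of intestinal DCs. The 10 genes (Flt3, Kit, Csf1r, Csf2ra, Csf2rb, Csf2rb2, Csf3r, Il3ra, Il7r and Ltbr) were taken as a list of symbols, and each matched 1 of the 53801 Ensembl mouse gene identifiers counted in every library. The libraries came from 2 DC subsets of the mouse gut, CD103+CD11b- and CD103-CD11b+, sorted as CD45+CD64-CD11c+MHC-II+ cells. Each subset was taken from mice labelled wild type (WT) and from Cbfb F/F: CD11c-Cre mice (labelled Cbfb-cKO), with 3 libraries in each of the 4 groups. In the latter, Cre under the CD11c promoter deletes the floxed part of Cbfb, which encodes the subunit that pairs with the DNA-binding Runx proteins, and the study also found some recombination in gut CD4+ T cells. The labels give a mixed strain background for all 12 libraries, and give no age, no treatment and no Cre status for the WT animals. The labels only number the replicates, and the study describes the 3 of a group as sorted from different mice.

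DC growth is driven by a small set of cytokine receptors. Flt3 is the tyrosine kinase receptor through which Flt3 ligand expands DC progenitors and conventional DCs (cDCs), while Kit is the related receptor for stem cell factor and Csf1r the one for M-CSF and IL-34, best known in monocytes and macrophages. The GM-CSF receptor joins the chain Csf2ra to the common beta chain Csf2rb, which also serves Il3ra (IL-3) and Il5ra (IL-5), and mice carry a second beta chain, Csf2rb2, that works with Il3ra alone. Csf3r is the G-CSF receptor of neutrophils, Il7r binds IL-7 with Il2rg and thymic stromal lymphopoietin with Crlf2, and Ltbr is the lymphotoxin beta receptor, which signals to the noncanonical NF-kB pathway and maintains splenic cDCs.

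The libraries held 2161929 to 5863484 counts on genes. Counts of Cbfb itself were not lower in the libraries labelled Cbfb-cKO. They were 228, 216 and 199 CPM (counts per 1e6 counts on genes) in the WT and 221, 215 and 290 in the Cbfb-cKO CD103+CD11b- libraries, and 184, 161 and 217 against 180, 170 and 273 in the CD103-CD11b+ libraries. A count over the whole gene includes exons outside the deleted part and therefore does not check the label, and WT and Cbfb-cKO are used below as the libraries are labelled. The subset labels could be checked: Itgae, which encodes CD103, lay between 616 and 899 CPM in the CD103+CD11b- libraries and between 30.6 and 281 in the CD103-CD11b+ libraries, and Itgam, which encodes CD11b, between 3.66 and 10.98 and between 77.9 and 222. Xist was between 1312 and 1744 CPM in WT replicates 1 and 2 and in Cbfb-cKO replicate 2 of both subsets and between 0.29 and 3.33 CPM in the other 6 libraries, so genotype and sex were unevenly mixed.

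The receptor genes are all protein-coding and were counted over their exons (GRCm38). Flt3 (147330741 to 147400489, minus strand) and Kit (75574916 to 75656722, plus strand) lie on chromosome 5, Csf3r on chromosome 4 (126024550 to 126044440, plus strand) and Il7r on chromosome 15 (9505788 to 9530176, minus strand). Ltbr lies on chromosome 6 (125306571 to 125313885, minus strand), Il3ra on chromosome 14 (14346275 to 14356011, plus strand) and Csf2ra on chromosome 19 (61223957 to 61228429, minus strand).

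Csf2rb and Csf2rb2 lie next to each other on chromosome 15 (GRCm38), Csf2rb2 at 78282507 to 78305721 on the minus strand and Csf2rb at 78325752 to 78353847 on the plus strand, with 20030 bases between them. Their first 120 coding bases are printed because the values of Csf2rb2 depend on how far reads can tell the 2 genes apart. Capitals mark the 4 bases that differ.
Csf2rb: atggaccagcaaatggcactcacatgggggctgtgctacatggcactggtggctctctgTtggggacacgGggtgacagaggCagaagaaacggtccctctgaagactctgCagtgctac
Csf2rb2: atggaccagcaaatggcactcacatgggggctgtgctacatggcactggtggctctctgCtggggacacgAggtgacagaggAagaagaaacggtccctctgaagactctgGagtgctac
Over the whole coding sequence (2691 and 2637 bases in the GENCODE annotation) 95.2% of the 2631 bases aligned without a gap were identical. Of all stretches of 50 bases in the Csf2rb2 transcripts, 18.4% also occurred in a Csf2rb transcript, and 12.3% of those of Csf2rb occurred in Csf2rb2. Reads with a low mapping quality had been removed before counting, so shared stretches may be missing from both counts, and values of the pair are less certain than those of the other receptors.

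Runx proteins with Cbfb bind the core letters TGTGGT or TGCGGT, and the 250 bases before each RefSeq start site (GRCm38.p6) were searched for both on either strand. A window existed for 8 of the 10 receptor genes (all but Csf1r and Csf2rb), and 1 of the 8, Flt3, held a match, compared with 18.6% of 32851 such windows of all genes. Some RefSeq start sites lie inside the GENCODE gene. All 250 window bases were inside it for Il7r, 220 for Il3ra, 109 for Csf3r, 71 or 75 for Kit and 11 for Csf2ra. For Il7r the bases before the GENCODE start were therefore not searched. The Flt3 window (chr5:147400490-147400739, minus strand, upstream of the gene) is printed with the reverse complement of TGCGGT in capitals, its first base at position -61 from the start site. The Csf2rb2 window (chr15:78305722-78305971, minus strand, upstream of the gene) is printed beside it as that of a receptor whose levels did not overlap between the genotypes in CD103+CD11b- DCs, and no letters are in capitals there.
Flt3: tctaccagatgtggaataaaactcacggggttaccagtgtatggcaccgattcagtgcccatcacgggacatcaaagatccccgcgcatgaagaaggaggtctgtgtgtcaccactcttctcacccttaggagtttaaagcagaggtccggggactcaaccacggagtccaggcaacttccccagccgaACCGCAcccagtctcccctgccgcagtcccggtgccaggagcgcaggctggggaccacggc
Csf2rb2: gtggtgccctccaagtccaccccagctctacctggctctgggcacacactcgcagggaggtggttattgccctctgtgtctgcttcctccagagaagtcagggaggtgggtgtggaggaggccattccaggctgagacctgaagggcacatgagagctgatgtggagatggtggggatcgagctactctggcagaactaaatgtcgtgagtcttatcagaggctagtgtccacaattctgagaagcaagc
A match is a description of the letters, and no factor binding was measured here.

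Per exon length, the GM-CSF receptor chains were the most abundant of the 10 receptor mRNAs in each group. In WT CD103+CD11b- DCs the mean level per kb of exon was 92.0 CPM for Csf2ra (SD 7.91, n = 3), 86.9 for Csf2rb (SD 16.8) and 76.6 for Flt3 (SD 13.0), and these 3 did not differ beyond their spread. Csf2rb2 followed at 58.6 CPM per kb with the widest spread (SD 30.6), then Kit at 37.8, Il7r at 30.3 and Ltbr at 25.5. Csf1r (7.06), Il3ra (6.30) and Csf3r (1.03) closed the order. In WT CD103-CD11b+ DCs Csf2ra (82.5 CPM per kb) and Csf2rb (78.5) again led, Csf1r came next at 47.5, within its spread (SD 10.1) of Flt3 at 47.0, and Il7r was last at 6.80. Csf3r held the last place in Cbfb-cKO CD103+CD11b- DCs at 0.70 CPM per kb, with Csf1r beside it at 0.72. In Cbfb-cKO CD103-CD11b+ DCs, by contrast, Csf3r reached 29.5 CPM per kb (SD 6.96), within the spread of Ltbr at 28.1.

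**Figure D1:**
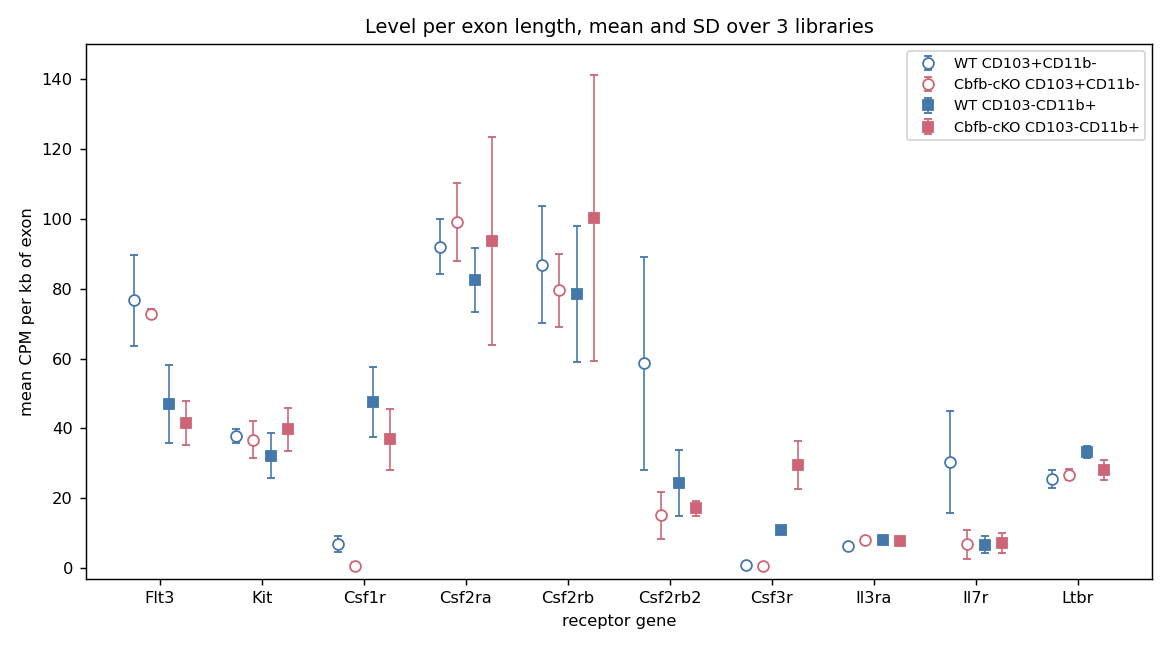
Mean CPM per kb of exon for the 10 receptor genes in the 4 groups (points, with bars for the SD over 3 libraries). Csf2ra and Csf2rb lie at 78.5 or above in every group, and Csf1r and Csf3r are higher in the filled symbols (CD103-CD11b+) than in the open ones (CD103+CD11b-).

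The levels of each receptor in the single libraries show where the groups part. Flt3 was at 547, 484 and 388 CPM in WT CD103+CD11b- libraries, at 441, 455 and 452 in Cbfb-cKO CD103+CD11b-, at 359, 220 and 293 in WT CD103-CD11b+ and at 260, 216 and 294 in Cbfb-cKO CD103-CD11b+. It was thus higher in the CD103+CD11b- subset of both genotypes without overlap. Kit was at 319, 340 and 352 CPM, 301, 299 and 383 CPM, 313, 221 and 326 CPM and 330, 315 and 418 CPM in the same order of groups, and all groups overlapped. Kit also marks mast cells. Of the 7 mast cell markers examined, Tpsb2, Fcer1a and Ms4a2 had no count in any library, Cpa3, Mcpt1 and Mcpt2 did not exceed 3.52 CPM, and Hdc made up most of the list's sum of 1.03 to 38.8 CPM. The sum and Kit were both highest in Cbfb-cKO CD103-CD11b+ replicate 3, and the part of mast cells in the Kit values was not tested. Csf2ra ranged from 202 to 365 CPM and Csf2rb from 415 to 1067 CPM over the 12 libraries, with Cbfb-cKO CD103-CD11b+ replicate 3 highest for both.

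**Figure D2:**
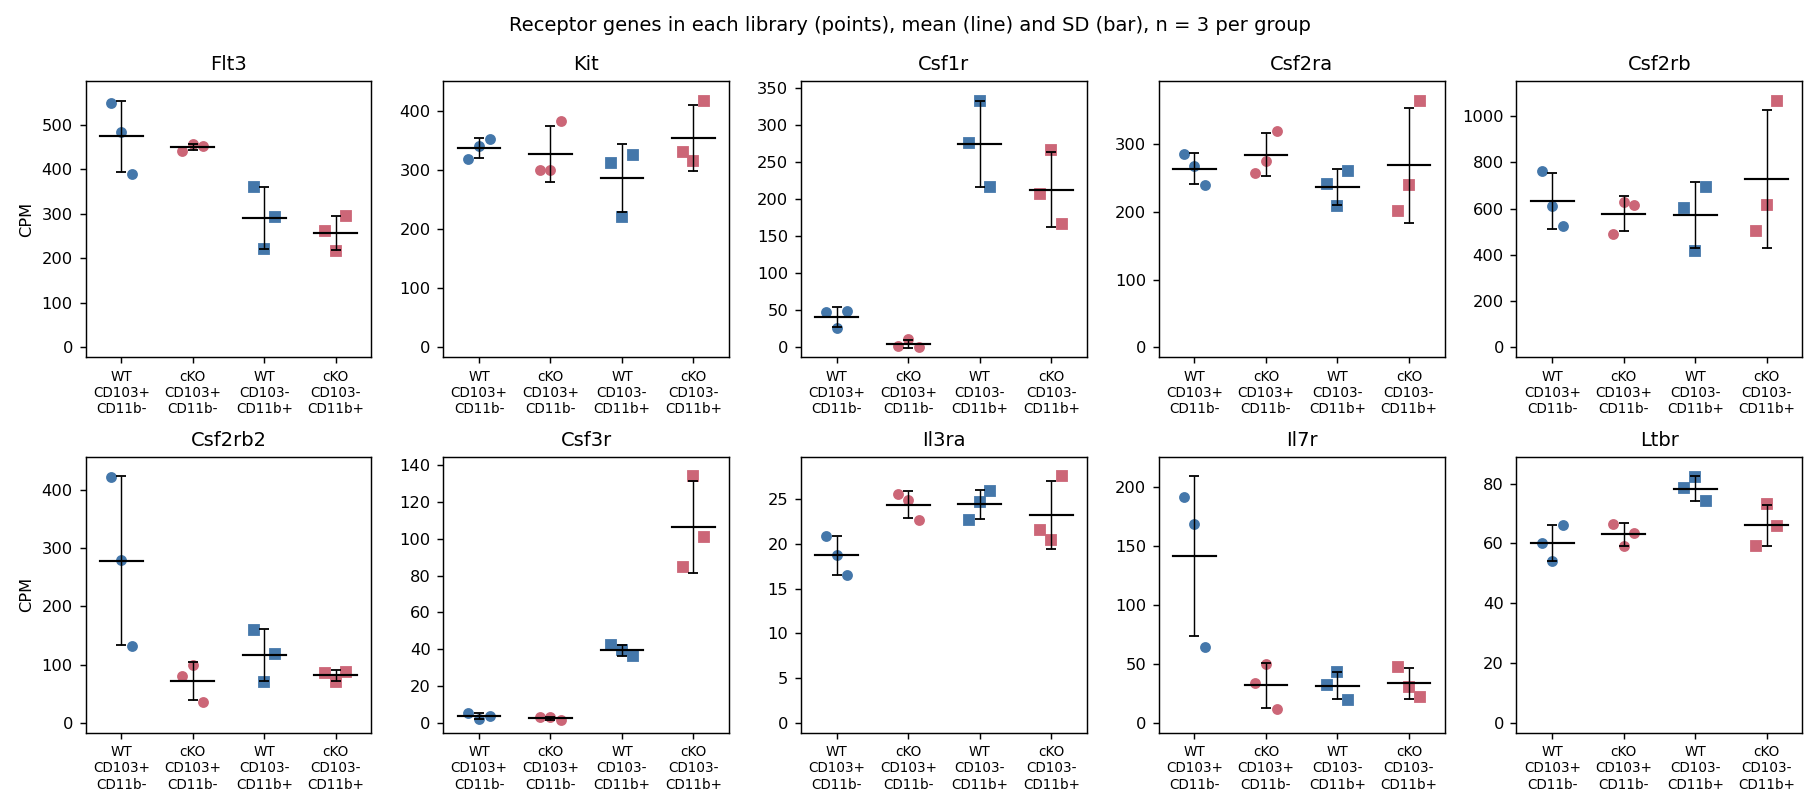
CPM of each receptor gene in the 12 libraries (points, in order of replicate 1, 2 and 3), with the group mean (line) and SD (bar); each panel has its own axis in CPM. Csf1r and Csf3r are high in the CD103-CD11b+ libraries, and Csf2rb2 and Il7r have their highest means (278 and 141) in WT CD103+CD11b- libraries, where replicate 3 is the lowest.

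Libraries labelled Cbfb-cKO were first set against WT within CD103-CD11b+ DCs, where 1 of the 10 receptors, Csf3r, was called (adjusted p under 0.05 and over 1.3-fold) against 1.61% of the 20580 genes tested. Csf3r was at 42.3, 39.3 and 36.4 CPM in the 3 WT libraries and at 84.6, 134 and 101 CPM in the 3 Cbfb-cKO libraries. All Cbfb-cKO values lay above all WT values, and Csf3r rose by 1.44 on the log2 scale (SE 0.29, edgeR adjusted p = 0.0353). The call was narrow. It was lost without WT CD103-CD11b+ replicate 2 or 3, without Cbfb-cKO CD103+CD11b- replicate 1 or 2 or without any 1 Cbfb-cKO CD103-CD11b+ library (adjusted p from 0.0529 to 0.117), while the log2 change stayed between 1.24 and 1.59. Ltbr also did not overlap, at 78.5, 82.3 and 74.2 CPM in WT and 59.3, 73.0 and 65.8 CPM in Cbfb-cKO libraries, but its change of -0.25 (SE 0.12, adjusted p = 0.320) did not pass. Groups without overlap were found for 2 of 10 receptors and 20.1% of all genes tested. The other receptors gave log2 changes from -0.52 (Csf2rb2) to 0.35 (Csf2rb), and the median of the 10 was 0.0067 beside -0.06 for all genes.

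Csf3r is the receptor of neutrophils, so the levels of granulocyte markers in these libraries are given beside it. The 6 neutrophil markers summed to 28.0, 131 and 15.1 CPM in WT and to 133, 195 and 112 CPM in Cbfb-cKO CD103-CD11b+ libraries. Most of this was Mmp9, while S100a8, S100a9 and Ly6g reached at most 4.94 CPM in any of them. In WT replicate 2 the neutrophil sum of 131 CPM lay within the range of the Cbfb-cKO libraries, and Csf3r was at 39.3 CPM. The 5 eosinophil markers summed to 14.8 to 38.3 CPM in WT and 51.0 to 80.2 CPM in Cbfb-cKO libraries with Epx at most 0.45 CPM. The 11 macrophage and monocyte markers summed to 312 to 586 and 459 to 608 CPM, and their members differed in direction. Adgre1 was higher in Cbfb-cKO libraries without overlap, at 29.7 to 76.0 against 140 to 237 CPM. Ccr2 was lower without overlap, at 122, 152 and 131 CPM in WT and 86.7, 70.4 and 106 CPM in Cbfb-cKO libraries. Fcgr1, Mertk, C1qa, C1qb, C1qc, Cd14, Ly6c2 and Cx3cr1 overlapped. The 5 epithelial markers were lower in Cbfb-cKO libraries without overlap, at 351, 182 and 229 CPM in WT and 63.5, 49.5 and 99.9 CPM in Cbfb-cKO libraries. The part of any of these cells in the Csf3r difference was not tested. In bulk libraries such as these, fewer cells of a type and less RNA per cell cannot be told apart.

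In CD103+CD11b- DCs none of the 10 receptors was called (edgeR, 1.02% of the genes tested), although 4 had an unadjusted p under 0.05 and the same 4 showed no overlap between the genotypes (18.1% of the genes tested). Csf1r was at 47.5, 25.6 and 49.2 CPM in WT and at 1.55, 10.98 and 0 CPM in Cbfb-cKO libraries. These are 139, 112 and 304 counts against 7, 45 and 0 counts, and the library without a count could have held up to 1.17 CPM (3 counts). Its log2 change was -3.18 (SE 0.69, adjusted p = 0.0608). Csf2rb2 was at 422, 279 and 133 CPM in WT and at 80.1, 99.1 and 36.4 CPM in Cbfb-cKO libraries, a log2 change of -1.94 (SE 0.45, adjusted p = 0.0785). The neighbouring Csf2rb, at 765, 609 and 523 against 491, 630 and 614 CPM, changed by -0.13 (95% interval -0.73 to 0.48). Il7r was at 191, 169 and 64.2 CPM in WT and at 33.7, 50.03 and 12.1 CPM in Cbfb-cKO libraries, a log2 change of -2.12 (SE 0.53, adjusted p = 0.104). Il3ra alone was on the other side, at 20.9, 18.8 and 16.5 CPM in WT and 25.5, 24.9 and 22.7 CPM in Cbfb-cKO libraries (log2 change 0.39, SE 0.17, adjusted p = 0.441). The median change of the 10 receptors was -0.10 beside -0.02 for all genes.

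How these 3 lower values stood to the threshold depended on the fit. DESeq2 called 3 receptors, Csf1r, Csf2rb2 and Il7r, and 3.17% of the 20580 genes. Without WT CD103+CD11b- replicate 3, Csf2rb2 (-2.28, adjusted p = 0.0261) and Il7r (-2.48, adjusted p = 0.0394) passed in edgeR, and without Cbfb-cKO CD103+CD11b- replicate 2, the library that held most of the remaining Csf1r counts, Csf1r did (-5.36, adjusted p = 0.0118). Over all genes 241 and 60 were called in these 2 fits, beside 210 with every library. With sex as a term, chosen after the data were seen, the changes were -3.20 for Csf1r (adjusted p = 0.0619), -1.76 for Csf2rb2 (adjusted p = 0.128) and -1.82 for Il7r (adjusted p = 0.115). Among Xist-high libraries (2 WT and 1 Cbfb-cKO) mean Csf2rb2 was 3.54 times and Il7r 3.60 times as high in WT, and among Xist-low libraries (1 WT and 2 Cbfb-cKO) 2.28 and 2.80 times. Csf1r was at 36.6 against 10.98 CPM among the former and 49.2 against 0.78 CPM among the latter.

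Markers of other cells also differed between these libraries. The 6 plasmacytoid DC markers (all 6 with counts in both groups) summed to 1919, 1614 and 832 CPM in WT and to 606, 701 and 341 CPM in Cbfb-cKO CD103+CD11b- libraries, and Siglech alone to 464, 358 and 160 against 111, 150 and 17.99 CPM. WT replicate 3 was the lowest of its group for this list, for Csf2rb2 and for Il7r alike, and so was Cbfb-cKO replicate 3. The 7 cDC2 markers summed to 630, 462 and 370 CPM in WT and to 127, 138 and 84.9 CPM in Cbfb-cKO libraries. Sirpa (283, 214 and 137 against 47.3, 40.3 and 5.08 CPM), Irf4, Cd209a, Clec10a and Cd101 were lower without overlap, and Mgl2 overlapped. Itgam of this list was higher in Cbfb-cKO libraries without overlap, at 4.79, 3.66 and 4.53 against 5.99, 10.98 and 7.43 CPM. The 5 epithelial markers, in WT libraries mainly Cdh1, summed to 263, 219 and 107 against 40.4, 91.5 and 16.4 CPM. The 8 cDC1 markers summed to 4871 to 7144 CPM in WT and 6398 to 8057 CPM in Cbfb-cKO libraries. Of these, Xcr1, Clec9a, Batf3, Cadm1 and Tlr3 were higher in Cbfb-cKO libraries without overlap, and Irf8, Itgae and Wdfy4 overlapped. Xcr1 was at 472, 439 and 384 against 521, 557 and 680 CPM, and Cadm1 at 466, 483 and 390 against 751, 791 and 750 CPM. Macrophage and monocyte markers summed to 113 to 136 and 63.5 to 139 CPM. Lists with higher sums in Cbfb-cKO libraries, as for Il3ra, were the 5 eosinophil markers, at 12.7 to 16.7 against 19.9 to 41.2 CPM, and the 7 mast cell markers, at 1.03 to 4.37 against 4.66 to 9.52 CPM, both without overlap. Their part in the Il3ra values was not tested. The part of cells with plasmacytoid DC, cDC2 or lymphocyte markers in the values of Csf1r, Csf2rb2 and Il7r was not tested. Csf1r shares 873 exon bases (15.1% of its exons) with Hmgxb3 on the opposite strand, and since counting ignored strand, reads there cannot be assigned to either.

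**Figure D3:**
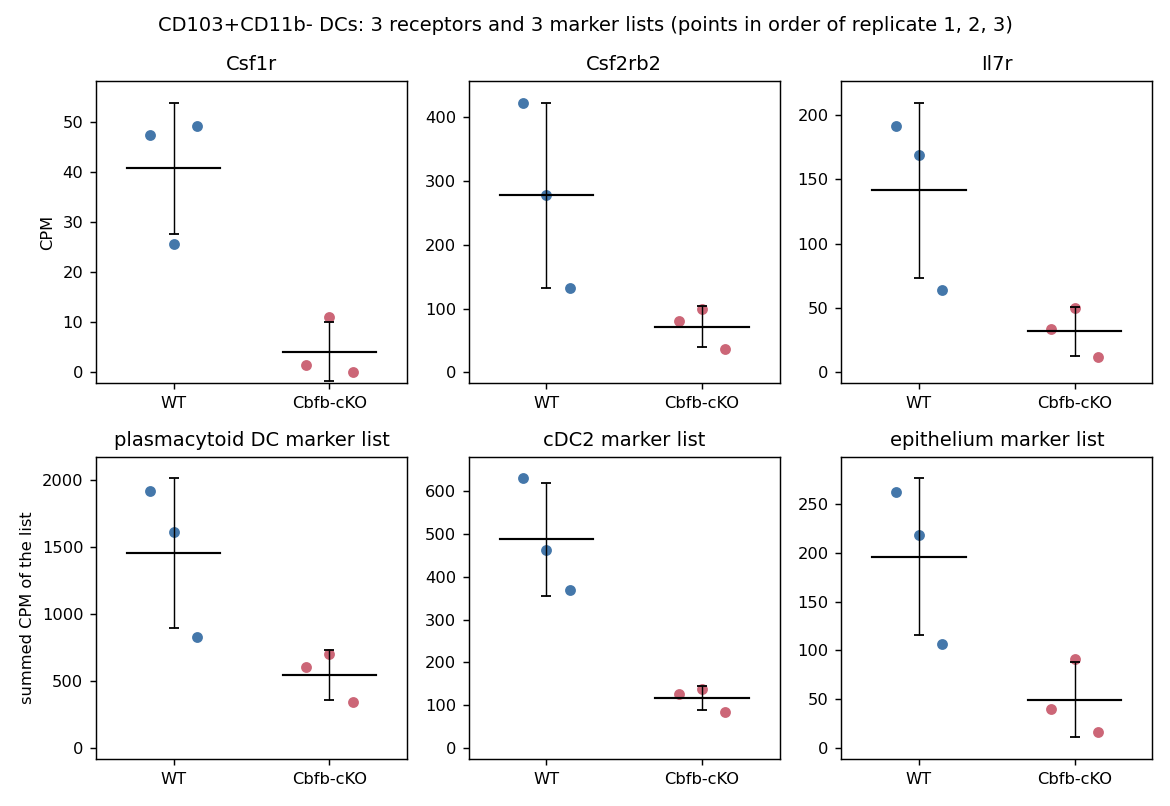
CPM of Csf1r, Csf2rb2 and Il7r (top) and summed CPM of the plasmacytoid DC, cDC2 and epithelium marker lists (bottom) in the 3 WT and 3 Cbfb-cKO CD103+CD11b- libraries, with mean (line) and SD (bar). In all 6 panels the WT points lie above the Cbfb-cKO points, and replicate 3 is the lowest WT point in all but Csf1r.

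**Figure D4:**
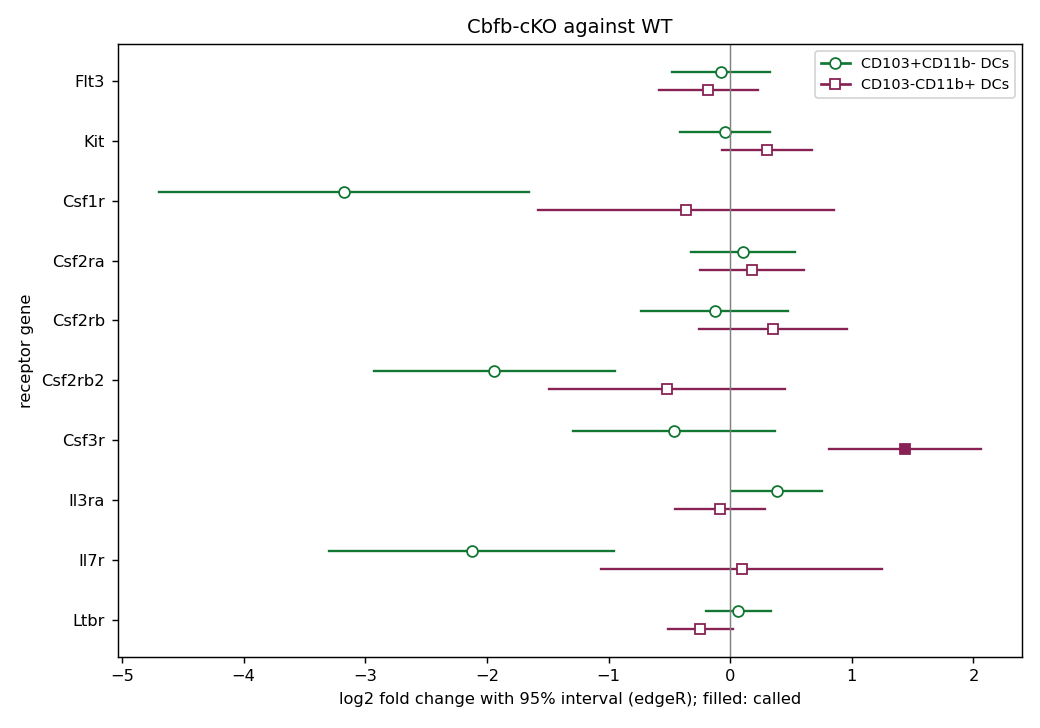
Log2 fold change of Cbfb-cKO against WT libraries for the 10 receptors, with 95% intervals from edgeR, in CD103+CD11b- (circles) and CD103-CD11b+ DCs (squares). Only Csf3r in CD103-CD11b+ DCs is filled (called, 1.44), and the intervals of Csf1r, Csf2rb2 and Il7r in CD103+CD11b- DCs lie below 0.

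Several receptors showed narrow intervals around no change between the genotypes. In CD103+CD11b- and CD103-CD11b+ DCs respectively, the 95% interval of the log2 change ran from -0.48 to 0.33 and from -0.59 to 0.23 for Flt3, and from -0.41 to 0.33 and from -0.06 to 0.67 for Kit. For Csf2ra the intervals ran from -0.32 to 0.53 and from -0.25 to 0.60. A 2-fold change of these 3 receptors in either direction lay outside the intervals.

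Whether the difference between the genotypes itself differed between the subsets was tested as the difference of the 2 log2 changes. None of the 10 receptors was called (edgeR, 0.651% of the genes tested), and 4 had an unadjusted p under 0.05. The differences, CD103-CD11b+ minus CD103+CD11b-, were 2.81 for Csf1r (SE 0.88, adjusted p = 0.243), 2.22 for Il7r (SE 0.74, adjusted p = 0.270), 1.90 for Csf3r (SE 0.47, adjusted p = 0.133) and 1.42 for Csf2rb2 (SE 0.62, adjusted p = 0.428). DESeq2 called 1 of them, Csf3r, and 2.46% of all genes, and edgeR called Csf1r (4.999, adjusted p = 0.0258) without Cbfb-cKO CD103+CD11b- replicate 2. With the replicate number as a block, edgeR called Il7r (2.25, adjusted p = 0.0251), and with the block within genotype as well (2.23, adjusted p = 0.0475), while the share of all genes called was 1.60% and 1.59% in these fits.

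The subsets were compared within each genotype. In WT mice, 5 of the 10 receptors were called between CD103-CD11b+ and CD103+CD11b- DCs, beside 18.8% of the genes tested. Csf3r, at 5.47, 1.83 and 3.88 CPM in the CD103+CD11b- libraries, was higher in CD103-CD11b+ DCs by 3.42 on the log2 scale (SE 0.33, edgeR adjusted p = 0.00014), and Csf1r, at 275, 332 and 216 CPM there, by 2.75 (SE 0.60, adjusted p = 0.0117). Il7r, at 32.3, 43.0 and 19.8 CPM in CD103-CD11b+ libraries, fell by 2.16 (SE 0.53, adjusted p = 0.0199) and Flt3 fell by 0.70 (SE 0.19, adjusted p = 0.0251). Ltbr rose by 0.38 (SE 0.12, adjusted p = 0.0489), a call that was lost on leaving out any single library of the 12 (adjusted p from 0.0502 to 0.230). Csf2rb2, at 159, 70.0 and 119 CPM, differed by -1.25 (SE 0.44, adjusted p = 0.0692) and overlapped between the subsets. It was called by DESeq2 (adjusted p = 0.0292), in edgeR with no filter (adjusted p = 0.0436), and without WT CD103+CD11b- replicate 3, WT CD103-CD11b+ replicate 1 or Cbfb-cKO CD103+CD11b- replicate 3 (adjusted p from 0.0179 to 0.0498). Groups did not overlap for 6 of the 10, the 5 called and Il3ra, and for 38.1% of the genes tested. The median change of the 10 was -0.15 beside 0.07 for all genes.

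The number of calls fell in 4 of the 6 fits without a single WT library, among the receptors and over all genes. Without WT CD103+CD11b- replicate 2 only Csf3r was called, without WT CD103+CD11b- replicate 1 or WT CD103-CD11b+ replicate 3 only Csf1r and Csf3r, and without WT CD103-CD11b+ replicate 2 Csf1r, Csf3r and Il7r. Over all genes the 3860 calls became 1410, 1672, 2674 and 2224 in these 4 fits. Without WT CD103+CD11b- replicate 3 or WT CD103-CD11b+ replicate 1, Ltbr was lost and Csf2rb2 gained, so that 5 receptors were called, with 3730 and 4140 calls over all genes. The Csf3r difference was called in all 12 such fits, between 3.06 and 3.73 on the log2 scale. In Cbfb-cKO mice 3 receptors were called beside 16.1% of the genes tested, Csf3r (5.32, SE 0.36, adjusted p = 6.9e-06), Csf1r (5.56, SE 0.72, adjusted p = 0.00043) and Flt3 (-0.81, SE 0.19, adjusted p = 0.0127), and the same 3 of 10 did not overlap (34.0% of the genes tested). The call of Flt3 was lost without Cbfb-cKO CD103-CD11b+ replicate 2 (-0.70, adjusted p = 0.0553). Il7r was at 47.8, 30.5 and 21.9 CPM in Cbfb-cKO CD103-CD11b+ libraries and did not differ between the subsets there beyond its spread (0.06, 95% interval -1.09 to 1.22), nor did Csf2rb2 (0.17, 95% interval -0.81 to 1.14), at 86.0, 70.0 and 87.7 CPM. The 11 macrophage and monocyte markers summed to 63.5 to 139 CPM in the CD103+CD11b- and 312 to 608 CPM in the CD103-CD11b+ libraries. Fcgr1, the CD64 gene that the sort gated out, lay between 0 and 0.49 CPM in the former and between 4.94 and 11.7 CPM in the latter. The 6 neutrophil markers summed to 0.68 to 2.91 CPM in WT CD103+CD11b- and 15.1 to 131 CPM in WT CD103-CD11b+ libraries, and to 0.39 to 20.5 and 112 to 195 CPM in Cbfb-cKO libraries. The part of these cells in the subset difference was not tested.

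**Figure D5:**
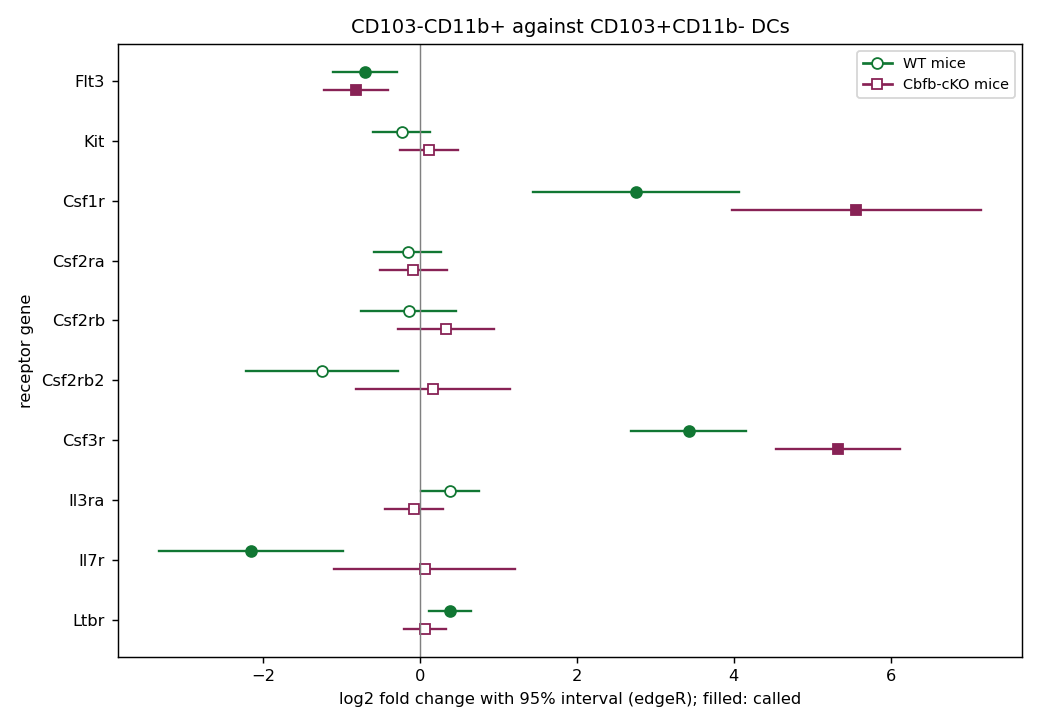
Log2 fold change of CD103-CD11b+ against CD103+CD11b- DCs for the 10 receptors with 95% intervals from edgeR, in WT (circles) and Cbfb-cKO mice (squares). Filled symbols were called, which were 5 in WT and 3 in Cbfb-cKO mice, and Csf1r and Csf3r lie far to the right in both.

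The ligands of these receptors were mostly low in the sorted DCs. Of 13 ligand genes 9 had enough counts to be tested, Il3 had no count in any library, and Csf2, Csf3 and Il5 stayed below 5 counts. Flt3l was at 12.3, 10.8 and 11.8 CPM in WT CD103+CD11b- and 22.7, 22.0 and 29.4 CPM in WT CD103-CD11b+ libraries, a rise of 1.09 (SE 0.21, adjusted p = 0.00742) in the subset whose Flt3 was lower. Kitl (3.54, SE 0.97, adjusted p = 0.0290) and Csf1 (2.86, SE 0.79, adjusted p = 0.0306) were also called higher in WT CD103-CD11b+ DCs. The 5 stromal and endothelial markers summed to 192 to 569 CPM in WT CD103+CD11b- and to 781 to 1996 CPM in WT CD103-CD11b+ libraries, and Kitl was at 24.6 CPM in WT CD103+CD11b- replicate 3, the library of that group with the most Col1a1 (108 CPM). Their part in the ligand values was not tested. Il34 (0 to 29.0 CPM), Il7 (0 to 4.33 CPM), Lta (0 to 2.35 CPM) and Tnfsf14 (0 to 2.38 CPM) passed in none of the 5 comparisons. Ltb, a ligand chain of Ltbr, was at 20.2, 9.15 and 7.44 CPM in WT and 1.78, 1.71 and 3.13 CPM in Cbfb-cKO CD103+CD11b- libraries (-2.48, SE 0.57, adjusted p = 0.0737), without overlap. It was called between the subsets of Cbfb-cKO mice, at 28.3, 28.8 and 9.69 CPM in CD103-CD11b+ libraries (3.38, SE 0.57, adjusted p = 0.00229). The 8 B cell markers summed to 571, 256 and 92.3 CPM in those libraries and to 115, 125 and 61.0 CPM in Cbfb-cKO CD103+CD11b- libraries. The part of B cells in the Ltb values was not tested.

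Of 3 partner chains, named after their values were seen, Il2rg was called higher in CD103-CD11b+ DCs of WT (0.91, SE 0.24, adjusted p = 0.0233) and Cbfb-cKO mice (1.96, SE 0.24, adjusted p = 0.00031). Il5ra did not exceed 0.33 CPM outside the Cbfb-cKO CD103-CD11b+ libraries, where it was at 2.47, 2.86 and 0.51 CPM (11, 12 and 1 counts). It passed the filter through that group alone and had at most 1 count in the other 9 libraries, so no fold is given, although it is 1 of the genes called between the Cbfb-cKO subsets. Crlf2 lay between 55.9 and 89.7 CPM in all 12 and was called in no comparison.

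Around the receptors, 58 ligand, partner, signalling and target genes were counted as lists and 54 could be tested. In CD103-CD11b+ DCs 1 was called higher and 1 lower in Cbfb-cKO mice, and in CD103+CD11b- DCs none was in edgeR (10 had an unadjusted p under 0.05, and DESeq2 called 3: Ltb, Tyrobp and Socs1). Of all genes tested, 1.61% and 1.02% were called by edgeR in these comparisons, and 3.17% by DESeq2 in CD103+CD11b- DCs. The gene that fell was Socs3, the feedback inhibitor of STAT3-activating receptors such as Csf3r, at 249, 401 and 345 CPM in WT and 167, 182 and 207 CPM in Cbfb-cKO libraries (-0.84, SE 0.17, adjusted p = 0.0422). Birc2, which encodes a ubiquitin ligase of the noncanonical NF-kB pathway below Ltbr, rose from 101, 93.6 and 119 CPM to 170, 177 and 160 CPM (0.70, SE 0.15, adjusted p = 0.0464). In neither gene did the groups overlap. The 6 other genes of the lymphotoxin receptor list were not called, and 5 of its 7 members had an unadjusted p under 0.05 in edgeR. So had 7 of 18 kinases, adaptors and STATs and 5 of 11 negative regulators, and 18 of the 54 genes of all lists. No gene of the 54 was called for the difference between the subsets (11 with an unadjusted p under 0.05, and 4 called by DESeq2: Ltb, Ptpn11, Tyrobp and Socs1, beside 2.46% of all genes).

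Between the subsets of WT mice 12 of the 54 genes were called higher and 4 lower in CD103-CD11b+ DCs, and 14 and 4 in Cbfb-cKO mice, where 18.8% and 16.1% of all genes tested were called in either direction. The 6 called genes with the smallest p in WT mice were Socs3 (2.02, SE 0.18), the inhibitory adaptor Dok2 (3.04, SE 0.51), the survival gene Bcl2 (1.55, SE 0.24), Jak3 (1.01, SE 0.18), the kinase that pairs with Il2rg, the cyclin Ccnd2 (0.99, SE 0.19) and the kinase Tyk2 (-0.82, SE 0.12). By list, 3 of 9 ligands, 1 of 3 partner chains, 3 of 18 kinases, adaptors and STATs, 7 of 11 negative regulators, none of 7 lymphotoxin receptor genes and 2 of 6 survival and proliferation targets were called in either direction in WT mice, counts to be read beside the same 18.8%. The median change of the 54 genes was 0.21 beside 0.07 for all genes tested in WT mice, and 0.43 beside 0.11 in Cbfb-cKO mice.

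Over the 12 libraries, some receptors varied together. Pearson's r of log2 CPM (prior count 2) was 0.82 between Csf1r and Csf3r, -0.87 between Flt3 and Csf3r, 0.85 between Csf2rb2 and Il7r, 0.82 between Csf2ra and Csf2rb, and 0.25 between the neighbours Csf2rb and Csf2rb2. These are descriptions over 12 libraries that share subset, genotype and sort. Of 12645 genes with a mean of 5 CPM or more, those most like Csf3r included Adgre4 (r = 0.99) and Art2a-ps (0.98), and those most like Csf1r were Atrnl1, Dram1 and Il1rn (each 0.98). Vac14 (0.98), Gm1965 (0.98) and Agpat1 (0.97) were most like Flt3. Cacna1e (0.97), Tlr7 (0.94) and Gm13919 (0.94) were most like Il7r, and Npc1 (0.94), Gm26947 (0.93) and Slc41a2 (0.91) most like Csf2rb2. For Ltbr they were Maged1, Maged2 and Hr (0.93 to 0.91), for Csf2ra Scpep1, Cox6c and H2-DMa (0.95 to 0.93), for Csf2rb Tpd52, 4833407H14Rik and Rab8a (0.94 to 0.88), for Kit Mrps7, Slc36a3os and Msmo1 (0.92 to 0.91), and for Il3ra Cldnd1, St3gal1 and Sema4a (0.91 to 0.79).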

How the data were processed

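Cells were sorted by the authors and libraries prepared with a RamDA-seq method (random-primed, full-length) adjusted for bulk input. Per the study's methods, reads were trimmed with Trim Galore, mapped to GRCm38 with STAR 2.7, cleared of low-quality and duplicate reads, and counted without regard to strand with HTSeq. The deposited files hold raw counts per Ensembl gene, 1 file per library. Removing duplicates can limit the counts of abundant genes, and the mapping quality filter can drop reads shared by paralogs.

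A gene was kept if any of the 12 libraries held 5 counts of it, and the 20580 genes kept were fitted in edgeR 4.0.16 (R 4.3.3; TMM, quasi-likelihood F-test) with 1 model of the 4 groups. P-values were adjusted by Benjamini-Hochberg over all genes tested, and a gene was called at an adjusted p under 0.05 and over 1.3-fold. CPM values use TMM-scaled library sizes, with exon lengths from GENCODE (GRCm38) for levels per kb. Alternatives were DESeq2 1.42.0, RLE scaling, 3 other filters, no fold limit, the 6 libraries of a comparison alone, a replicate block, leaving out each library, and a sex term.

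The receptor list, pathway lists and marker lists were chosen with earlier results of these data known. Named are all 10 receptors, ligands with a mean of 1 CPM in any group, pathway genes called between the genotypes or for their difference, and the 6 called with the smallest p between the WT subsets. For each receptor the 3 genes with the highest r are given, except 1 gene that is not reported here.

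The labels do not say whether subsets with the same replicate number come from the same mouse. Deviations from the group means correlated between same-numbered subsets at 0.11, 0.32 and 0.35 in Cbfb-cKO and at 0.36, -0.08 and 0.35 in WT mice, and Xist agreed in all 6 pairs. Between differently numbered subsets they correlated at -0.31 to 0.08 in Cbfb-cKO and at -0.47 to 0.35 in WT mice, so the WT values do not single out the same-numbered pairs. WT and Cbfb-cKO mice of the same number share no animal.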

Additional observations from a re-analysis of the deposited data

How the results depend on the processing

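Of 1060 refits of a receptor's change (10 receptors in 5 comparisons), 977 kept the direction and the side of the threshold, 35 lost a call, 21 gained one, and 27 changed sign without a call in either fit, with values from -0.33 to 0.09. No called change turned its direction. The causes of lost and gained calls were not tested, unless stated.

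For Cbfb-cKO against WT in CD103-CD11b+ DCs, the 1 call became 0 with 5 or more counts required in every sample, where Csf3r could not be tested, and 0 in the fit to the 6 libraries alone, and leaving out 1 library gave 0 to 1. For CD103+CD11b- DCs, the 0 calls became 3 (Csf1r, Csf2rb2 and Il7r) in DESeq2, with no filter (0.984% of all genes) and with the replicate block, and leaving out 1 library gave 0 to 2. Same-numbered mice of the 2 genotypes are not the same animals, so the block holds only a shared number there. It raised the count over all genes from 210 to 522 in CD103+CD11b- and from 331 to 849 in CD103-CD11b+ DCs. For the difference between the subsets, the 0 calls became 1 in DESeq2 (Csf3r), 1 with the replicate block (Il7r, adjusted p = 0.0251), 1 with the block within genotype (Il7r, adjusted p = 0.0475), and 0 to 1 on leaving out 1 library. Between the subsets of WT mice, the 5 calls became 3 with 5 or more counts required in every sample (Csf1r and Csf3r could not be tested, 21.9% of all genes called) and 3 in the fit to the 6 libraries alone (13.4%), and leaving out 1 library gave 1 to 5, while DESeq2, no filter and leaving out any of 3 single libraries added Csf2rb2. Ltbr was lost with no filter (adjusted p = 0.132) and, being under 1.3-fold, with filterByExpr. In Cbfb-cKO mice the 3 calls became 1 with 5 or more counts in every sample (24.1%), for the same reason, and the block within genotype, for libraries that the numbers may pair, changed no call, while in WT mice it lost that of Ltbr (adjusted p = 0.0704).

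Over all genes, leaving out 1 library gave 121 to 517 calls for CD103-CD11b+ and 46 to 241 for CD103+CD11b- DCs between the genotypes, 1410 to 4373 between the WT subsets, 2124 to 3638 between the Cbfb-cKO subsets and 29 to 210 for the difference. The fit to 6 libraries called 27 genes for CD103-CD11b+ DCs, where Csf3r was lost.

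The sex term, chosen after the data were seen, lost the call of Ltbr between the WT subsets (adjusted p = 0.0561) and no other receptor's call. RLE scaling moved the median of all genes by at most 0.03 on the log2 scale. With 3 libraries of 2161929 to 5863484 counts a group, the biological coefficient of variation was 58.8% for Csf1r and 13.3% for Ltbr, with Il7r (44.7%) and Csf2rb2 (38.0%) next to Csf1r.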
